A study of Mus musculus with 53 samples.

Results

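Genes that make, store and break down the monoamine transmitters were followed through 53 RNA sequencing libraries of brainstem, cerebellum, cortex and striatum from mice that model spinocerebellar ataxia type 3 (SCA3) and from wild-type controls. They were chosen by name from a list of 8 (Th, Ddc, Tph2, Slc6a4, Slc18a2, Dbh, Maoa and Maob), and 5 of the 8 had a row among the 12372 genes of the table, which are Th, Ddc, Slc18a2, Maoa and Maob. The lowest mean level of any gene in that table was 4.07 CPM (counts scaled to equal library totals), and Tph2, Slc6a4 and Dbh were not analysed here. The SCA3 mice were male hemizygous MJD84.2 animals on a C57BL/6 background, whose transgene is the whole human ATXN3 gene, its CAG repeat expanded, driven by the human promoter rather than by one of a particular cell type. The controls were male wild-type C57BL/6 mice. Brains were taken at 74 to 77 weeks of age in the 6 SCA3 mice and at 75 to 77 weeks in the 8 wild-type mice. Brainstem gave 6 SCA3 and 8 wild-type libraries, cerebellum and cortex gave 6 and 7 each, and striatum gave 5 and 8. Of the 14 mice, 11 gave all 4 regions, and mouse numbers name the libraries below.

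Total counts per library ran from 31700000 to 76700000, so even the lowest member value, 1.05 CPM of Th in 1 cortex library, rested on 35 counts. RNA integrity numbers (RIN) ran from 5.7 to 9. RIN was higher in SCA3 than in wild-type brainstem (7.78 ± 0.264, SD, n = 6, against 7.24 ± 0.424, n = 8), with p = 0.0107 in an exact two-sided permutation test and 0.0852 after adjustment over 8 tests of RIN and depth, of which no other reached an unadjusted p under 0.05. The transgene is human, so the row of mouse Atxn3 is no direct check of the genotype. It was higher in SCA3 striatum (54.3 to 64.8 CPM against 40.1 to 53.7 CPM, log2 fold change 0.33 ± 0.0641, FDR 0.000116), and in brainstem, cerebellum and cortex the values were 0.01, 0.11 and 0.14, past the threshold in none. Whether reads of the transgene entered this row was not tested. Summed markers of cerebellar neurons separated cerebellum (2985 to 4406 CPM) from every other region (at most 419 CPM). Markers of striatal projection neurons reached 5982 to 8732 CPM in SCA3 striatum but 2190 to 9622 CPM in wild-type striatum, where the thalamus markers ran from 176 to 2675 CPM. None of the 12 hindbrain markers listed had a row, so the brainstem label was not checked with them.

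Dopamine and noradrenaline are made from tyrosine by tyrosine hydroxylase (Th), and aromatic L-amino acid decarboxylase (Ddc) turns L-DOPA into dopamine and 5-hydroxytryptophan into serotonin. The vesicular monoamine transporter VMAT2 (Slc18a2) loads all of these transmitters, and histamine, into synaptic vesicles. The monoamine oxidases on the outer mitochondrial membrane (Maoa and Maob) break them down, with Maoa found mainly in catecholamine neurons and Maob in serotonin neurons and astrocytes. The cell bodies of dopamine, serotonin and noradrenaline neurons lie mostly in nuclei of the midbrain and hindbrain, which send axons to cortex, striatum and cerebellum. In the GRCm38 build that the counts were made on, RefSeq places Th on chromosome 7 (142892779 to 142899995), Ddc on chromosome 11 (11814101 to 11898144), Slc18a2 on chromosome 19 (59260878 to 59296012), Maoa on chromosome X (16619698 to 16687812) and Maob on chromosome X (16709281 to 16817366), and counts fell on their exons. Maoa and Maob point toward each other and end 21468 bases apart, with no shared exon. One exon block of Slc18a2 overlaps an antisense RNA, Gm29261, over 99 bases, and since reads were counted without strand, reads of these 2 genes cannot be told apart there.

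The promoters of Th, Ddc and Slc18a2 are shown because the levels of these 3 genes moved together between brainstem libraries. Each is given 5′ to 3′ on the strand of its gene, from 250 bases before to 20 bases after the start site of RefSeq (GRCm38.p6). Capitals mark the cAMP response element TGACGTCA, the NGFI-B response element AAAGGTCA (bound by receptors of the Nr4a family), the TATA box TATAAA and the GC box GGGCGG, searched on both strands.
Th, chr7:142899976-142900245, minus strand: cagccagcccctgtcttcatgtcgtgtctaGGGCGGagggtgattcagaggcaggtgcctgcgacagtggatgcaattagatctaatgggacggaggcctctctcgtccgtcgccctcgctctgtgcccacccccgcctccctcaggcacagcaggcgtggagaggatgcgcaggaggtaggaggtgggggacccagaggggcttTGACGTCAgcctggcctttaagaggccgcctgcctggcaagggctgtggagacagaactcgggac
Ddc, chr11:11898125-11898394, minus strand: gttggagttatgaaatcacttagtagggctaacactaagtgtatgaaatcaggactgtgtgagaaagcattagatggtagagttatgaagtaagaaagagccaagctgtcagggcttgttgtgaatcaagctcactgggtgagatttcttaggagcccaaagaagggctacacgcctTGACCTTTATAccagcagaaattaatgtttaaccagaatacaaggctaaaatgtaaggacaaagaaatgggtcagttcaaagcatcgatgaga
Slc18a2, chr19:59260628-59260897, plus strand: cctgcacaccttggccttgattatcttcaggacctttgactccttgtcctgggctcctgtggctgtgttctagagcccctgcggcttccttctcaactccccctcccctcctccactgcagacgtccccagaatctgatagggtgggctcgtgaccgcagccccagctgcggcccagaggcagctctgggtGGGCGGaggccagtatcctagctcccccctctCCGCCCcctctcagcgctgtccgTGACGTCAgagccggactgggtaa
The 8 letters of the cAMP response element began 45 bases before the start site of Th and 4 bases before that of Slc18a2, and 1.79% of all 32851 promoter windows of 300 bases held them. Ddc held the NGFI-B response element on the opposite strand, 73 bases before the start, where it shared bases with a TATA box read on the same opposite strand; 1.51% of all windows held the first and 13.6% the second. GC boxes, present in 35.7% of all windows, were in the Th and Slc18a2 windows and in the window of Maoa, and a second start of Ddc held none of the 4 motifs. The windows were 64.3% G and C for Th, 64% for Slc18a2, 41.3% for the Ddc window shown and 57.7% for Maoa. Windows were available for 4 of the 5 members. A match of letters describes the sequence and does not show that a factor binds there.

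Ddc and Slc18a2 differed between brainstem and the other regions by larger folds than Maoa and Maob, and the ranges of Th overlapped between all regions. Of the 5 members, 4 were higher in wild-type brainstem than in each of the other 3 regions in edgeR's likelihood ratio test (FDR under 0.05), as were 14.6% of all genes, and Maob missed this against striatum alone. Brainstem differed from cerebellum for 5 members (72.6% of all genes), from cortex for 5 (65.4%) and from striatum for 4 (64.2%). Fewer members separated the other pairs, with 1 between cerebellum and cortex (69.7% of all genes), 3 between cerebellum and striatum (69.5%) and 1 between cortex and striatum (34.4%). In whole tissue, fewer cells of a type and less RNA per cell cannot be told apart.

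Slc18a2 had the steepest regional profile of the 5 genes. In wild-type mice its lowest, median and highest values were 39.3, 68.6 and 224 CPM in brainstem (n = 8), 3.46, 8.10 and 21.1 CPM in cerebellum (n = 7), 5.13, 6.84 and 23.5 CPM in cortex (n = 7) and 5.19, 12.1 and 23.5 CPM in striatum (n = 8). The lowest brainstem library thus lay above the highest library of every other region. Brainstem exceeded cerebellum by a log2 fold change of 3.28 ± 0.409 (SE; FDR 2.73e-12), cortex by 3.09 ± 0.409 (FDR 4.77e-11) and striatum by 2.72 ± 0.395 (FDR 6.88e-10). The other 3 regions did not differ from each other past the threshold, with log2 differences of -0.56 to -0.18.

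Ddc followed the same order at the top. Its wild-type values were 26.7, 43.3 and 153 CPM in brainstem, 2.58, 7.63 and 14.4 CPM in cerebellum, 5.21, 8.22 and 25.8 CPM in cortex and 9.40, 14.2 and 20.3 CPM in striatum. Again no brainstem library overlapped any other region. The log2 fold change of brainstem was 3.02 ± 0.368 over cerebellum (FDR 4.16e-13), 2.39 ± 0.368 over cortex (FDR 5.85e-09) and 2.15 ± 0.355 over striatum (FDR 3.27e-08). Cerebellum was below striatum by 0.87 ± 0.369 on the log2 scale (FDR 0.0307) and lower in all 7 wild-type mice with both libraries, but without mouse 7267059 the FDR was 0.0767, without mouse 9083371 it was 0.0834, and in libraries with a RIN of at least 7 it was 0.0653.

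Th, the rate-limiting enzyme of catecholamine synthesis, had a different profile, with a few brainstem libraries far above the rest. Wild-type brainstem ran from 6.40 to 135 CPM with a median of 9.14 CPM, which is below the cerebellar median of 10.2 CPM (range 6.46 to 15.2). Cortex ran from 1.05 to 12.1 CPM with a median of 5.42 CPM, and striatum from 5.14 to 11.6 CPM with a median of 7.89 CPM. The brainstem range overlapped every other region. The fitted log2 fold changes, which follow the means, were 1.87 ± 0.521 over cerebellum (FDR 0.00107), 2.53 ± 0.522 over cortex (FDR 1.84e-05) and 2.26 ± 0.504 over striatum (FDR 5.41e-05). Within mice, brainstem was the higher in 4 of 7 against cerebellum, 5 of 7 against cortex and 6 of 8 against striatum. The call against cerebellum was lost without wild-type mouse 9083375 (log2 fold change 1.12, FDR 0.0590), in limma-voom (0.84, FDR 0.176) and in limma-voom with the mouse as replicate block, which uses the pairing of regions within mice (0.88, FDR 0.131). The call against striatum was lost in limma-voom without that block (1.19, FDR 0.0582).

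Maoa differed in 5 of the 6 pairs of regions and Maob in 4, by smaller folds than Ddc and Slc18a2 in brainstem. Maoa ran from 68.8 to 83.1 CPM in wild-type brainstem (median 72.0), 58.5 to 72.3 CPM in cerebellum (median 63.5), 33.2 to 55.0 CPM in cortex (median 39.7) and 38.7 to 58.5 CPM in striatum (median 44.2). Brainstem did not overlap cortex or striatum, and cerebellum did not overlap cortex. The log2 fold change of Maoa in brainstem was 0.80 ± 0.0836 over cortex (FDR 7.71e-20), 0.67 ± 0.0806 over striatum (FDR 1.24e-15) and 0.21 ± 0.0833 over cerebellum (FDR 0.0173). This last call was lost with RIN as a covariate (FDR 0.0689) and without mouse 7267059 (0.0731) or 9083375 (0.0868). Cerebellum was also above cortex (0.59 ± 0.0864, FDR 4.81e-11) and striatum (0.46 ± 0.0835, FDR 8.03e-08).

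Maob ran from 34.4 to 51.9 CPM in wild-type brainstem (median 41.7), 21.2 to 30.5 CPM in cerebellum (median 27.3), 22.6 to 37.8 CPM in cortex (median 29.4) and 30.1 to 72.9 CPM in striatum (median 36.1). Its order thus differed from that of Maoa, with cerebellum at the bottom and striatum near brainstem. Brainstem was above cerebellum (log2 fold change 0.64 ± 0.124, FDR 7.50e-07) and cortex (0.53 ± 0.124, FDR 5.16e-05). Striatum was above cerebellum by 0.55 (SE 0.124, FDR 2.21e-05) and above cortex by 0.45 (SE 0.124, FDR 0.00216), with the striatal library higher in all 7 mice in both comparisons. The difference between brainstem and striatum was 0.09 ± 0.120 (FDR 0.526), but 1 striatal library, of mouse 7267058, stood at 72.9 CPM and the other 7 at 30.1 to 41.7 CPM. Without that mouse brainstem was higher than striatum (0.29, FDR 0.00624), and so it was in libraries with a RIN of at least 7 (0.26, FDR 0.0196), while the call of striatum over cortex was lost there (FDR 0.0654).

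Divided by exon length, levels can be set beside each other between genes. In wild-type brainstem the median was 20.7 RPKM (CPM per kilobase of exon) for Ddc, 18.1 for Slc18a2, 17.3 for both Maob and Maoa and 4.997 for Th, and the ranges of the first 4 overlapped. In wild-type cerebellum the oxidases led, with 15.2 RPKM for Maoa and 11.3 for Maob against 5.56 for Th, 3.65 for Ddc and 2.14 for Slc18a2. Cortex and striatum had the same order of groups, with Maob at 12.2 and 14.98 RPKM and Maoa at 9.53 and 10.6 RPKM. There Ddc was at 3.93 and 6.79 RPKM, Th at 2.97 and 4.31 RPKM, and Slc18a2 at 1.81 and 3.19 RPKM. By these medians, Ddc and Slc18a2 stood at or above the oxidases in brainstem and below them in the other 3 regions.

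**Figure D1:**
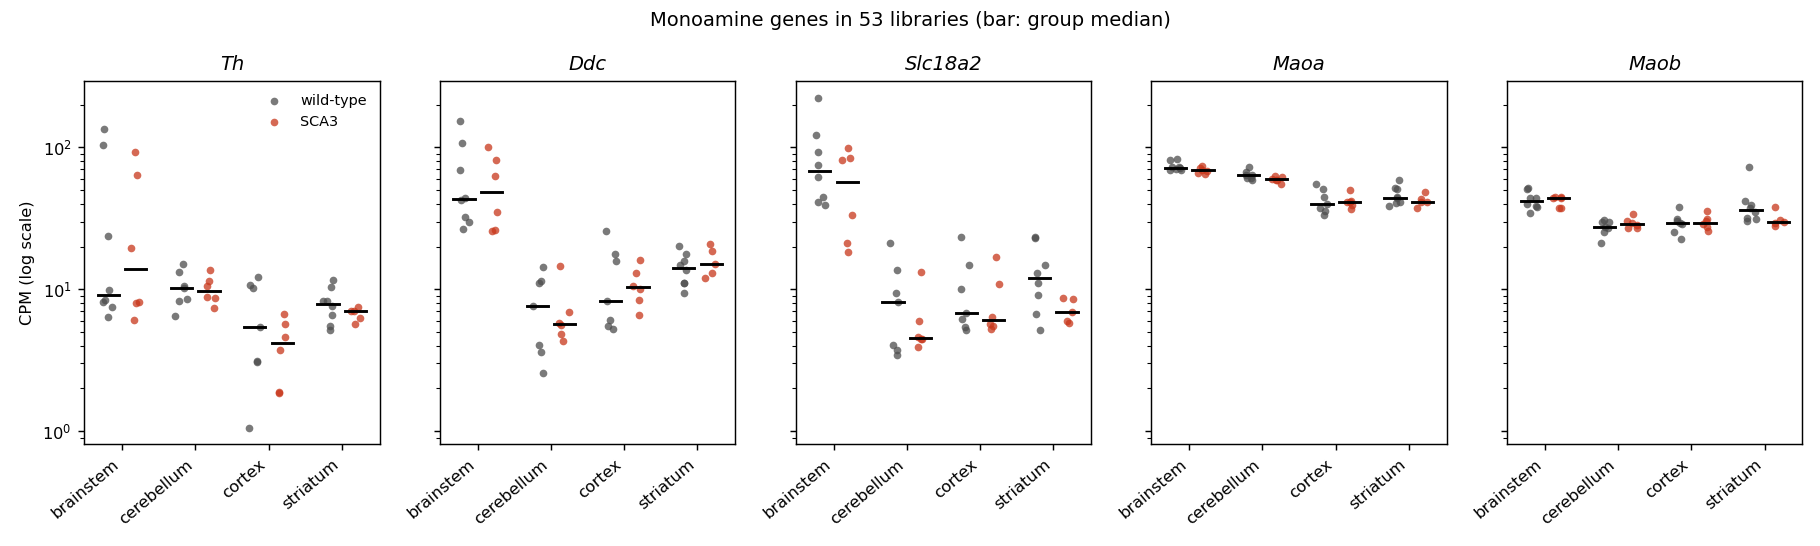
CPM (log axis) of the 5 members in each library, by region, with wild-type in grey, SCA3 in red and a bar at each group median. Ddc and Slc18a2 were highest in brainstem without overlap in wild-type mice, Th spread from 6.10 to 135 CPM within brainstem, Maoa ran from 33.2 to 83.1 CPM and Maob from 21.2 to 72.9 CPM over all libraries.

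Between the mice of wild-type brainstem, Th, Ddc and Slc18a2 were among the most variable of all genes. Over the wild-type brainstem libraries the SD of log2 CPM was 1.77 for Th, larger than for 99.9% of genes, 0.91 for Ddc and 0.87 for Slc18a2, each larger than for 99% of genes or more, against a median of 0.14 over all genes. Maoa had an SD of 0.10 and Maob of 0.21. The biological coefficient of variation in the fit over all libraries was 69.7% for Th, 54.7% for Slc18a2, 49.2% for Ddc, 16.5% for Maob and 11.02% for Maoa, with a median of 11.2% over all genes. In SCA3 brainstem the SD was again high for Th (1.67), Slc18a2 (1.08) and Ddc (0.85). In wild-type striatum the SD was 0.78 for Slc18a2, 0.41 for Maob, 0.40 for Th, 0.37 for Ddc and 0.20 for Maoa, but that of Maob rested on mouse 7267058, without which it was 0.18, with 0.84 for Slc18a2, 0.39 for Th, 0.37 for Ddc and 0.16 for Maoa.

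The same brainstem libraries were high for all 3 genes, in both genotypes. Th was at 135 CPM in wild-type mouse 9083375, 103 CPM in wild-type 7267055, 92.5 CPM in SCA3 9083514 and 63.8 CPM in SCA3 9083515. It was at 23.7 CPM in wild-type 9083373 and 19.7 CPM in SCA3 7267056, and at 6.10 to 9.91 CPM in the other 8 libraries. Ddc was highest in the same 6 mice and in the same order, with 153, 107, 101, 81.0, 68.9 and 62.5 CPM, and at 25.8 to 43.8 CPM in the other 8. Slc18a2 was also highest in those 6 mice, at 224, 123, 98.2, 84.0, 92.2 and 81.6 CPM, and at 18.3 to 74.9 CPM in the other 8. Maoa (64.5 to 83.1 CPM) and Maob (34.4 to 51.9 CPM) did not separate these mice.

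Over the 14 brainstem libraries Th and Ddc had r = 0.96 (rho 0.88), Ddc and Slc18a2 r = 0.93 (rho 0.96) and Th and Slc18a2 r = 0.83 (rho 0.89) on log2 CPM. Of the 10 pairs of members these 3 passed an adjusted permutation p under 0.05 for both r (5e-05, 5e-05 and 3e-04) and rho (0.000367, 0.0001 and 0.000367). The smallest p the permutations could give was 1e-05, before adjustment over the 10 pairs. Without the 2 libraries farthest from the median of the first gene, r was 0.92, 0.88 and 0.71. In the 8 wild-type libraries alone r was 0.96, 0.98 and 0.91 (adjusted exact permutation p 0.00322, 0.00149 and 0.00322), though the adjusted p of rho was 0.0726 for both pairs with Th. In the 6 SCA3 libraries r was 0.96, 0.98 and 0.90, with an adjusted exact permutation p of 0.0347, 0.0347 and 0.0648. For rho the adjusted exact permutation p there was 0.0556 for both pairs with Th and 0.0278 for Ddc and Slc18a2.

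Since 4 libraries stood apart above 60 CPM of Th, the relations were also taken over the other 10. There r was 0.87 for Th and Ddc, 0.88 for Ddc and Slc18a2 and 0.71 for Th and Slc18a2 (adjusted permutation p 0.0156, 0.01 and 0.0495), and for rho the adjusted p was 0.0615, 0.0073 and 0.0615. Ddc and Maob also passed there (r = 0.77, adjusted permutation p 0.0354). Leaving out the next 2 farthest libraries brought the pairs with Th to r = 0.41 and 0.45 and left Ddc and Slc18a2 at 0.84, so within the lower libraries the relations of Th rested on 2 mice. Among the pairs with an oxidase, r over the 14 libraries ran from 0.06 (Th and Maoa) to 0.61 (Slc18a2 and Maob), and none passed the adjusted threshold; as deviations from the genotype means Slc18a2 and Maob did (r = 0.64, adjusted permutation p 0.0362). Over these 14 libraries r of Th with RIN was 0.32 and with total counts -0.05.

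Some genes outside the members were high in the same brainstem libraries. Nr4a2, a nuclear receptor needed to form midbrain dopamine neurons, was at 21.3, 14.8, 34.9 and 14.6 CPM in the 4 libraries with Th above 60 CPM (in that order) and at 2.31 to 7.20 CPM in the other 10. Drd2, the dopamine D2 receptor that dopamine neurons use as an autoreceptor, was at 24.7, 24.7, 26.8 and 22.5 CPM in those 4 and at 12.8 to 20.5 CPM in the other 10. The libraries were divided here by Th itself, so for genes that follow Th this is a description and no separate evidence. As deviations from the genotype means, Nr4a2 had the highest correlation with Th of all genes (r = 0.97), followed by Ddc (0.96), Syt17 (0.96), Alox8 (0.96) and Drd2 (0.95), given as a description over 14 libraries. Not all genes of the pathway went this way: on log2 CPM r with Th was 0.85 for the dopamine D1 receptor Drd1 and 0.75 for Gata2, but 0.41 for Htr1b, -0.58 for Htr1a and -0.60 for Adra2a. The transcription factor En2 also had a row but was not in the set of genes taken here. The thalamus marker score of a library had r = 0.74 with Th, 0.67 with Ddc and 0.52 with Slc18a2, and the astrocyte score r = -0.51, -0.45 and -0.20. The thalamus score was 5.98 in wild-type 7267055 and 5.90 and 5.91 in SCA3 9083514 and 9083515. In wild-type 9083375, highest in all 3 genes, it was 4.60, within the 4.47 to 5.18 of the other 10 libraries. The part of these scores in these differences between libraries was not tested.

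**Figure D2:**
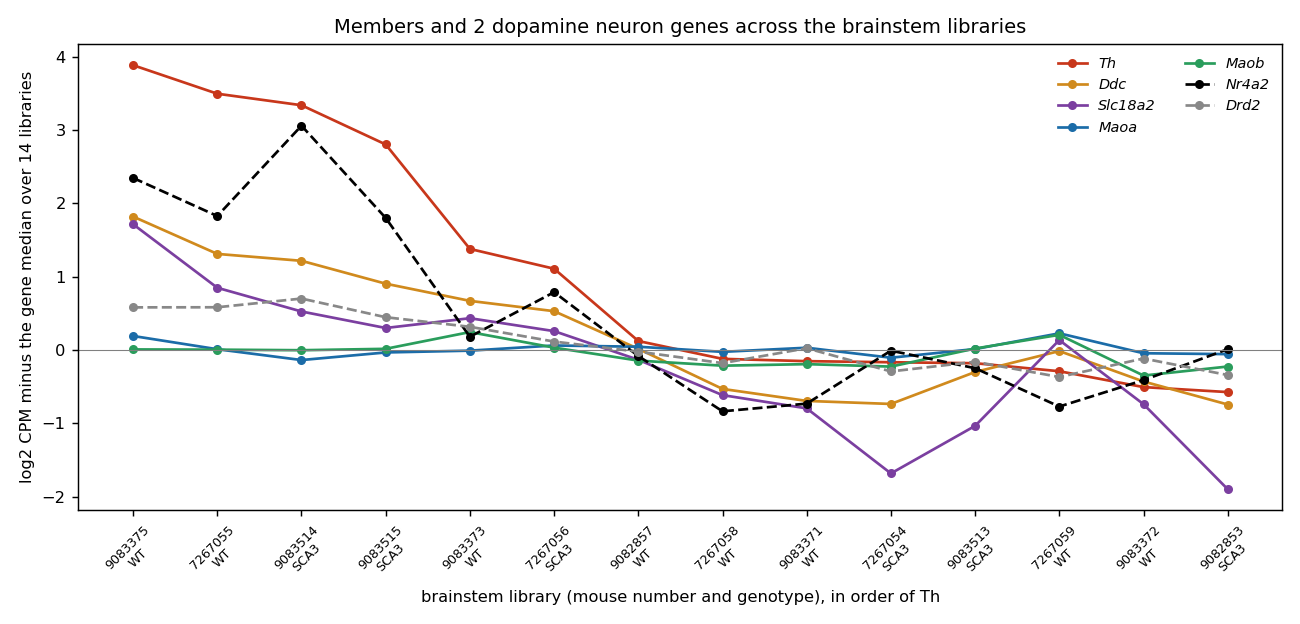
Log2 CPM of each gene minus its median over the 14 brainstem libraries (y axis), with libraries ordered by Th (x axis, mouse number and genotype). Th, Ddc, Slc18a2, Nr4a2 and Drd2 are high in the 4 libraries at the left, 2 of each genotype, while Maoa and Maob stay near 0.

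The pairs that passed were not the same in each region. In cerebellum (13 libraries) Ddc and Slc18a2 had r = 0.89 and rho 0.87 (adjusted permutation p 4e-04 and 0.0031), and r was 0.83 without the 2 farthest libraries. Th had r = 0.10 with Ddc (rho 0.15) and 0.14 with Slc18a2 (rho 0.12), with an adjusted permutation p for r of 0.751 and 0.732. The cerebellar library with the most Th, of wild-type mouse 9083371 at 15.2 CPM, had the least Slc18a2, 3.46 CPM. Both oxidases also moved with Ddc there (r = 0.63 and rho 0.68 for Maoa, 0.76 and 0.80 for Maob, adjusted permutation p of r 0.0433 and 0.00543), and Maoa with Slc18a2 (r = 0.82, rho 0.69, adjusted permutation p 0.0021). Marker scores of the tissue moved with these genes. The thalamus score had r = 0.78 with Ddc and 0.70 with Slc18a2 over the 13 libraries, the striatal projection neuron score 0.82 and 0.74, and the cerebellar neuron score -0.83 and -0.77. The part of these scores in these relations was not tested. In cerebellum the 11 thalamus markers summed to 654 to 788 CPM in wild-type and 696 to 794 CPM in SCA3 libraries. In brainstem the sums were 666 to 1174 CPM and 626 to 1200 CPM. Which tissue the thalamus score reads in cerebellum was not tested.

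In cortex all 10 pairs passed, with r from 0.61 to 0.92 and rho from 0.60 to 0.91 (adjusted permutation p 1e-04 to 0.0250 for r and 6e-04 to 0.0323 for rho), and r from 0.45 to 0.94 without the 2 farthest libraries of each pair. One wild-type library, of mouse 7267055, was the highest of the 13 for all 5 members, at 12.1 CPM of Th, 25.8 CPM of Ddc, 23.5 CPM of Slc18a2, 55.0 CPM of Maoa and 37.8 CPM of Maob. The sum of the 11 thalamus markers was 492.6 CPM in the same library, with a lowest wild-type sum of 164 CPM and a range of 161 to 488 CPM in SCA3 cortex, and its thalamus score of 4.41 was the third, after 4.73 in SCA3 mouse 7267056 and 4.52 in wild-type mouse 9083371. It had the highest sum of the 3 choroid plexus markers (1078 CPM). Over the 13 cortex libraries the thalamus score had r = 0.77 to 0.88 with the 5 members and the cortical excitatory neuron score r = -0.88 to -0.78. The 3 libraries highest in Ddc (wild-type 7267055 and 9083371, SCA3 7267056) had the 3 lowest cortical excitatory neuron scores, and the part of these markers in the relations was not tested. In striatum Maoa and Maob had r = 0.88 and rho 0.79 (adjusted permutation p 6e-04 and 0.0208; r = 0.85 without the 2 farthest libraries) and no other pair passed, with r = 0.15 for Th and Ddc and 0.21 for Ddc and Slc18a2 (rho 0.08 and 0.13, adjusted permutation p of r 0.622 and 0.542). Over the 13 striatal libraries the thalamus score had r = 0.89 with Maoa and 0.75 with Maob, the astrocyte score 0.80 and 0.68, and the striatal projection neuron score -0.76 and -0.61, and their part in the relation of the oxidases was not tested. Whether a correlation differed between regions was not tested.

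**Figure D3:**
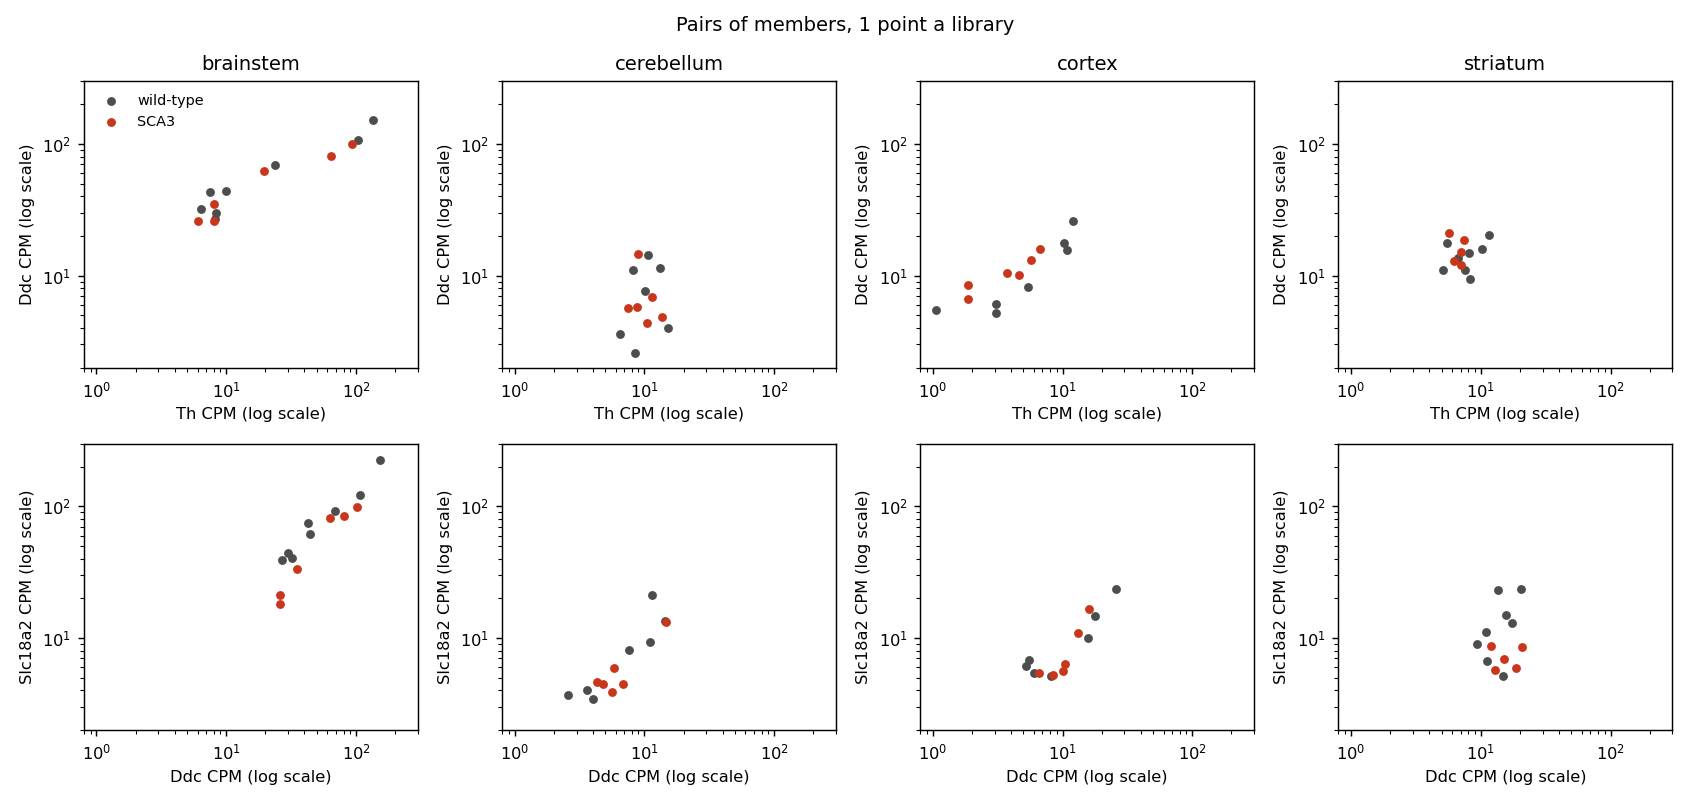
Ddc against Th (top) and Slc18a2 against Ddc (bottom), in CPM on log axes, with 1 point per library in each of the 4 regions, wild-type in grey and SCA3 in red. Th and Ddc rise together in brainstem (r = 0.96) and not in cerebellum (r = 0.10), while Ddc and Slc18a2 rise together in both (r = 0.93 and 0.89).

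Over all 53 libraries the genes most like each member, by Pearson's r of log2 CPM, were Flywch2 (0.77), Cyp4f17 (0.75) and Igsf10 (0.72) for Th. For Ddc they were Slc18a2 (0.93), Epb41l4a (0.91) and Klhl1 (0.91), and for Slc18a2 they were Ddc, Mpp5 (0.91) and Ankrd34b (0.90). Lgals8, Cd38 and Bbox1 (0.95 each) led for Maoa, and Epb41l4a (0.85), Amotl1 (0.84, also a thalamus marker here) and Aldh6a1 (0.82) for Maob. These values mix differences between regions with differences between mice and are a description only.

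SCA3 mice were compared with wild-type mice in each region by the same likelihood ratio test across all genes. None of the 5 members differed past an FDR of 0.05 in brainstem, where 1.92% of all genes did, in cerebellum (0.0647%), in cortex (0.154%) or in striatum (7.54%). At an unadjusted p under 0.05, 1 member passed in striatum (Maob), where 23.2% of all genes did, and 0 in brainstem (13.3%), cerebellum (1.66%) and cortex (4.07%). By edgeR's quasi-likelihood test and by DESeq2 the count was also 0 of 5 in each region. The SCA3 and wild-type ranges overlapped for all 5 members in all 4 regions, and the share of all genes whose ranges did not overlap was 1.38% in brainstem, 0.234% in cerebellum, 0.251% in cortex and 0.655% in striatum. A joint test of the 4 region effects called none of the members (4.73% of all genes), and none had a genotype effect that differed between regions (0.218% of all genes).

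In brainstem the lowest, median and highest values of Th were 6.10, 13.9 and 92.5 CPM in SCA3 mice and 6.40, 9.14 and 135 CPM in wild-type mice. Its log2 fold change, SCA3 over wild-type, was -0.19 ± 0.544 (SE; 95% Wald interval -1.26 to 0.87; FDR 0.929), an interval that holds a large difference in either direction. Without wild-type mouse 9083375 the value was 0.47, without wild-type mouse 7267055 it was 0.21, and in brainstem libraries fitted alone with the thalamus score as covariate it was -1.29 (FDR 0.353). Ddc stood at 25.8, 48.8 and 101 CPM in SCA3 against 26.7, 43.3 and 153 CPM in wild-type brainstem, a log2 fold change of -0.19 ± 0.383 (interval -0.94 to 0.56; FDR 0.886). With that covariate it was -0.56 (FDR 0.436).

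Slc18a2 was at 18.3, 57.4 and 98.2 CPM in SCA3 brainstem and at 39.3, 68.6 and 224 CPM in wild-type brainstem. In 3 of the 6 SCA3 mice (7267054, 9082853 and 9083513, at 21.2, 18.3 and 33.3 CPM) it lay below every wild-type mouse, and the other 3 (81.6 to 98.2 CPM) lay above the wild-type median. The log2 fold change was -0.64 ± 0.426 (interval -1.48 to 0.19; FDR 0.539). In brainstem libraries alone it was -0.65 (FDR 0.512) without and -1.06 (FDR 0.147) with the thalamus score as covariate. Maoa (64.5, 68.8 and 74.1 CPM against 68.8, 72.0 and 83.1 CPM) and Maob (37.4, 44.0 and 44.8 CPM against 34.4, 41.7 and 51.9 CPM) had narrow intervals, -0.27 to 0.07 and -0.27 to 0.23 on the log2 scale.

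In cerebellum Th was at 7.43, 9.67 and 13.6 CPM in SCA3 and 6.46, 10.2 and 15.2 CPM in wild-type mice (log2 fold change -0.04 ± 0.561). Ddc was at 4.35, 5.72 and 14.6 CPM against 2.58, 7.63 and 14.4 CPM (-0.15 ± 0.397), and Slc18a2 at 3.90, 4.57 and 13.2 CPM against 3.46, 8.10 and 21.1 CPM (-0.57 ± 0.441). SCA3 mouse 9082853 alone, with 14.6 CPM of Ddc and 13.2 CPM of Slc18a2, was far above the other 5 SCA3 mice for both genes. Maoa was at 55.0, 59.6 and 63.2 CPM against 58.5, 63.5 and 72.3 CPM (-0.10 ± 0.0895), with 6 of 6 SCA3 mice below the wild-type median, and Maob at 26.8, 28.8 and 33.7 CPM against 21.2, 27.3 and 30.5 CPM (0.10 ± 0.134). The FDR of each was 1.00.

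In cortex Th was at 1.86, 4.17 and 6.72 CPM in SCA3 and 1.05, 5.42 and 12.1 CPM in wild-type mice, a log2 fold change of -0.68 ± 0.562. The 3 wild-type libraries above 10 CPM (7267055, 9083371 and 9083372) exceeded every SCA3 library, and the lowest library of all was wild-type too (7267058). Ddc was at 6.59, 10.3 and 16.0 CPM against 5.21, 8.22 and 25.8 CPM (-0.16 ± 0.396) and Slc18a2 at 5.22, 6.02 and 16.8 CPM against 5.13, 6.84 and 23.5 CPM (-0.29 ± 0.441). The signs of both turned without wild-type mouse 7267055 (0.15 and 0.06). Maoa (37.0, 41.2 and 50.4 CPM against 33.2, 39.7 and 55.0 CPM) and Maob (25.6, 29.4 and 35.8 CPM against 22.6, 29.4 and 37.8 CPM) differed by -0.02 ± 0.0901 and 0.02 ± 0.134, and all 5 had an FDR of 1.

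Striatum held the 2 largest member differences relative to their errors. Slc18a2 was at 5.74, 6.93, 8.54, 8.64 and 5.93 CPM in SCA3 mice 7267054, 7267056, 9082853, 9083514 and 9083515, and at 5.19, 12.1 and 23.5 CPM in wild-type mice. All 5 SCA3 libraries lay below the wild-type median and 6 of the 8 wild-type libraries above every SCA3 library. The log2 fold change was -0.89 ± 0.451 (interval -1.78 to -0.01; FDR 0.226). Maob was at 29.8, 29.1, 37.7, 27.8 and 30.9 CPM in the same SCA3 mice and at 30.1, 36.1 and 72.9 CPM in wild-type mice. In 3 of the 5 it lay below every wild-type library, with a log2 fold change of -0.36 ± 0.137 (interval -0.63 to -0.10; FDR 0.0756).

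The Maob difference depended on the libraries taken in. Without wild-type mouse 7267058, at 72.9 CPM, it was -0.18 (FDR 0.354), and in libraries with a RIN of at least 7 it was -0.14 (FDR 0.614). That mouse had a striatal RIN of 6.2 and a thalamus score of 6.96, while wild-type mouse 7267055, with a RIN of 6, stood at 39.5 CPM. The Maob difference passed the threshold when SCA3 mouse 9082853 (-0.44, FDR 0.0405) or wild-type mouse 9082857 (-0.41, FDR 0.0327) or 9083371 (-0.41, FDR 0.0422) was left out. Markers of thalamus were lower in SCA3 striatum for 11 of the 11 with a row, 7 of them past the threshold, and their summed level was 182 to 455 CPM in SCA3 and 176 to 2675 CPM in wild-type libraries. Markers of striatal projection neurons had a higher estimate in SCA3 striatum for 10 of the 10 with a row (median log2 fold change 0.54), 0 of them past the threshold. Astrocyte markers summed to 4595 to 5107 CPM against 4439 to 6149 CPM, with 5 of 12 lower past the threshold, and no gene of either list was at 0 in all libraries. In the striatal libraries alone the log2 fold change was -0.36 for Maob (FDR 0.397) and -0.89 for Slc18a2 (FDR 0.212), and with the thalamus marker score as a covariate there it was -0.12 (FDR 0.879) and -0.73 (FDR 0.536).

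The other members did not stand apart in striatum. Th was at 6.26, 7.04, 5.67, 7.002 and 7.48 CPM in the 5 SCA3 mice, all below the wild-type median of 7.89 CPM (range 5.14 to 11.6), a log2 fold change of -0.24 ± 0.575 (FDR 0.841). Ddc was at 12.9, 15.1, 20.9, 11.9 and 18.7 CPM against 9.40, 14.2 and 20.3 CPM in wild-type mice (0.16 ± 0.405, FDR 0.844). Maoa was at 41.4, 43.1, 48.8, 37.5 and 41.4 CPM against 38.7, 44.2 and 58.5 CPM (-0.12 ± 0.0921, FDR 0.426).

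Set side by side, the Slc18a2 estimate was below 0 in each of the 4 regions (-0.64, -0.57, -0.29 and -0.89 in brainstem, cerebellum, cortex and striatum), and the joint test gave an FDR of 0.415. When 1 mouse was left out these values ran from -0.88 to -0.28, -0.94 to -0.20, -0.61 to 0.06 and -1.01 to -0.73, so the sign in cortex turned without 1 mouse (7267055). The regions come mostly from the same mice (11 of 14 gave all 4), so these are not 4 independent estimates. The median log2 fold change over the 5 members was -0.19 in brainstem, -0.10 in cerebellum, -0.16 in cortex and -0.24 in striatum, where the medians over all genes were 0.00 in each. Members were below 0 in 5, 4, 4 and 4 of 5 cases, against 49.05%, 52.82%, 51.24% and 50.97% of all genes. Members that move together over the same mice do not count as separate signs. The joint FDR of Th, Ddc, Maoa and Maob ran from 0.443 to 0.989.

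**Figure D4:**
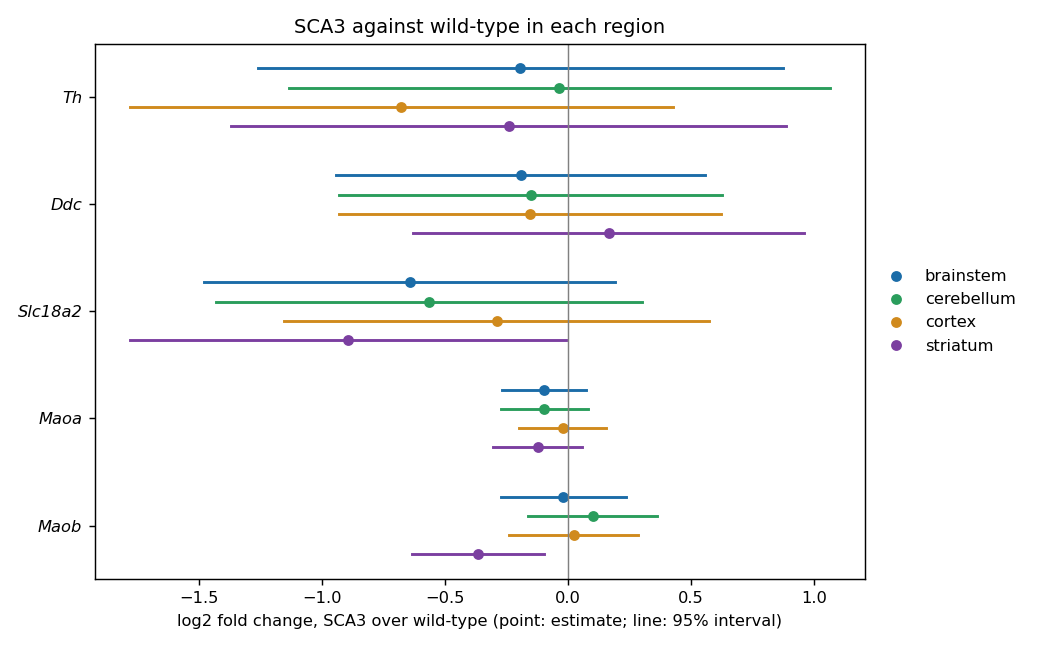
Log2 fold change of SCA3 over wild-type (x axis) with its 95% interval for each member (rows) in each region (colours). The intervals of Th, Ddc and Slc18a2 are several times as wide as those of Maoa and Maob, and no member passed an FDR of 0.05, although the striatal Wald intervals of Maob, -0.63 to -0.10, and Slc18a2, -1.78 to -0.01, leave out 0. The likelihood ratio test put the unadjusted p of Slc18a2 there just over 0.05.

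Other genes of monoamine metabolism and signalling were taken from a list of 55, of which 26 had a row. In brainstem 1 was higher and 1 lower in SCA3 mice (7.69% of the 26, against 1.92% of all genes, with 0.776% higher and 1.15% lower). In striatum 4 were lower and 0 higher (15.4%, against 7.54% of all genes, with 5.47% lower and 2.07% higher) and in cerebellum and cortex 0 passed.

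Qdpr, quinoid dihydropteridine reductase, regenerates tetrahydrobiopterin, the cofactor that Th and the tryptophan hydroxylases use. It was at 213, 241 and 257 CPM in SCA3 brainstem and at 296, 384 and 428 CPM in wild-type brainstem, with no overlap. In striatum the 5 SCA3 libraries were at 157, 143, 192, 157 and 169 CPM and the wild-type libraries at 193, 239 and 415 CPM, again with no overlap. The log2 fold change was -0.64 ± 0.125 in brainstem (FDR 1.53e-04) and -0.70 ± 0.132 in striatum (FDR 1.00e-04), which is 0.643 and 0.616 times the wild-type level. In cerebellum (104, 124 and 131 CPM against 127, 163 and 190 CPM) and cortex (109, 131 and 147 CPM against 112, 179 and 191 CPM) the groups overlapped and the values were -0.39 ± 0.129 and -0.36 ± 0.129, with an FDR of 1.00 and 0.615. The joint test called Qdpr (FDR 2.10e-11), and a difference between regions was not called (FDR 0.755). In mice of the largest number series, fitted alone, the striatal value was -0.55 (FDR 0.140), and with the thalamus marker score as a covariate in the striatal libraries alone it was -0.51 (FDR 0.0475). One exon block of Qdpr overlaps the antisense RNA Gm42413, so part of its count may belong to that gene.

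The cofactor genes Pts, Spr, Pcbd1 and Pcbd2 passed in no region. Pcbd1, which recycles the same cofactor, came nearest in striatum, at 2.31, 3.12, 6.11, 2.62 and 2.28 CPM in the SCA3 mice and 2.95, 7.25 and 15.3 CPM in wild-type mice (-1.19 ± 0.407, FDR 0.0573).

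Among 10 further genes listed as breakdown enzymes and with a row, Aldh2, the mitochondrial aldehyde dehydrogenase that clears the aldehydes made by the oxidases, was higher in SCA3 brainstem. Its values were 112, 129 and 142 CPM against 96.6, 104 and 120 CPM in wild-type mice, which overlapped, with a log2 fold change of 0.27 ± 0.0819 and an FDR of 0.0487. The log2 fold change was 0.27 (FDR 0.0645) in the quasi-likelihood test, 0.27 in limma-voom without (FDR 0.0714) and with the mouse as replicate block (FDR 0.0511), and 0.24 (FDR 0.148) with RIN as a covariate. Over the 14 fits that left out 1 mouse the FDR ran from 0.0257 to 0.187, and 9 of them lost the call. The call was also lost with RLE scaling (FDR 0.0555) and in the largest number series alone (FDR 0.267). It was kept in the brainstem libraries alone, without (FDR 0.0161) and with the thalamus score as a covariate (FDR 0.000765). Astrocyte markers in the same brainstem libraries summed to 3549 to 5364 CPM in SCA3 and 3971 to 8696 CPM in wild-type mice, with 4 of 12 lower past the threshold, and their part in these brainstem results was not tested.

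In striatum Comtd1 was lower (4.11, 4.19, 6.31, 6.19 and 4.18 CPM in the SCA3 mice against 4.90, 7.40 and 11.4 CPM; log2 fold change -0.63 ± 0.161, FDR 0.00677). Aldh9a1, an aldehyde dehydrogenase that takes aminoaldehydes, was lower by less (39.4, 38.6, 41.1, 34.2 and 35.1 CPM against 36.7, 43.4 and 54.3 CPM; -0.24 ± 0.0802, FDR 0.0448). Comtd1 was listed with the breakdown enzymes, and whether it acts on monoamines was not tested. The groups overlapped for both genes. With the thalamus marker score as a covariate in the striatal libraries alone the values were -0.43 (FDR 0.541) and -0.11 (FDR 0.716), and in the striatal libraries alone without it the FDR was already 0.187 and 0.301. Comtd1 also missed the threshold without SCA3 mouse 7267056 (FDR 0.0524) or 9083515 (FDR 0.0578), and Aldh9a1 did in limma-voom without (FDR 0.0625) and with the mouse as replicate block (FDR 0.0654) and in 10 of the 14 fits that left out 1 mouse. In libraries with a RIN of at least 7 both calls were lost (-0.58, FDR 0.0752, and -0.23, FDR 0.195). The joint test called Comtd1 (FDR 0.0497), a call lost in the quasi-likelihood test (FDR 0.0901), with RIN as a covariate (0.0541), in libraries with a RIN of at least 7 (0.309), in limma-voom (0.173) and in 9 of the 14 fits that left out 1 mouse. The values of the thalamus and striatal projection neuron markers given beside Maob are from these same striatal libraries, and the part of the projection neuron markers was not tested.

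Of the receptors listed here as autoreceptors of monoamine neurons, Adra2a, the alpha-2A adrenoceptor, was lower in SCA3 striatum. It was at 3.17, 4.50, 6.22, 12.6 and 5.51 CPM in the SCA3 mice and at 4.22, 17.5 and 27.3 CPM in wild-type mice, which overlapped (log2 fold change -1.39 ± 0.316, FDR 0.00240). The call was lost in limma-voom without (-1.22, FDR 0.0712) and with the mouse as replicate block (-1.20, FDR 0.0827) and in libraries with a RIN of at least 7 (-1.16, FDR 0.0703). In the striatal libraries alone the log2 fold change was -1.39 (FDR 0.161), and there with the thalamus marker score as a covariate it was -1.31 (FDR 0.363). The joint test called Adra2a (FDR 0.0322), which was lost in the quasi-likelihood test (FDR 0.0857), in libraries with a RIN of at least 7 (0.346), in limma-voom (0.373) and in 8 of the 14 fits that left out 1 mouse. Htr1a, the serotonin 1A receptor, was at 3.49, 5.89, 6.81, 12.1 and 3.99 CPM against 5.84, 14.3 and 48.3 CPM in wild-type mice, which missed the threshold (-1.74 ± 0.571, FDR 0.0544). Which cells of striatum held the RNA of Adra2a and Htr1a, monoamine neurons or others, was not tested. Neither transporter with a row passed in any region, and the plasma membrane monoamine transporter Slc29a4 was at 5.56 ± 2.81 CPM (SD, n = 5) against 10.3 ± 4.84 CPM (n = 8) in striatum (FDR 0.101). The 3 transcription factors with a row (Gata2, En2 and Nr4a2), Drd1, Drd2, Htr1b and Moxd1 passed in no region.

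**Figure D5:**
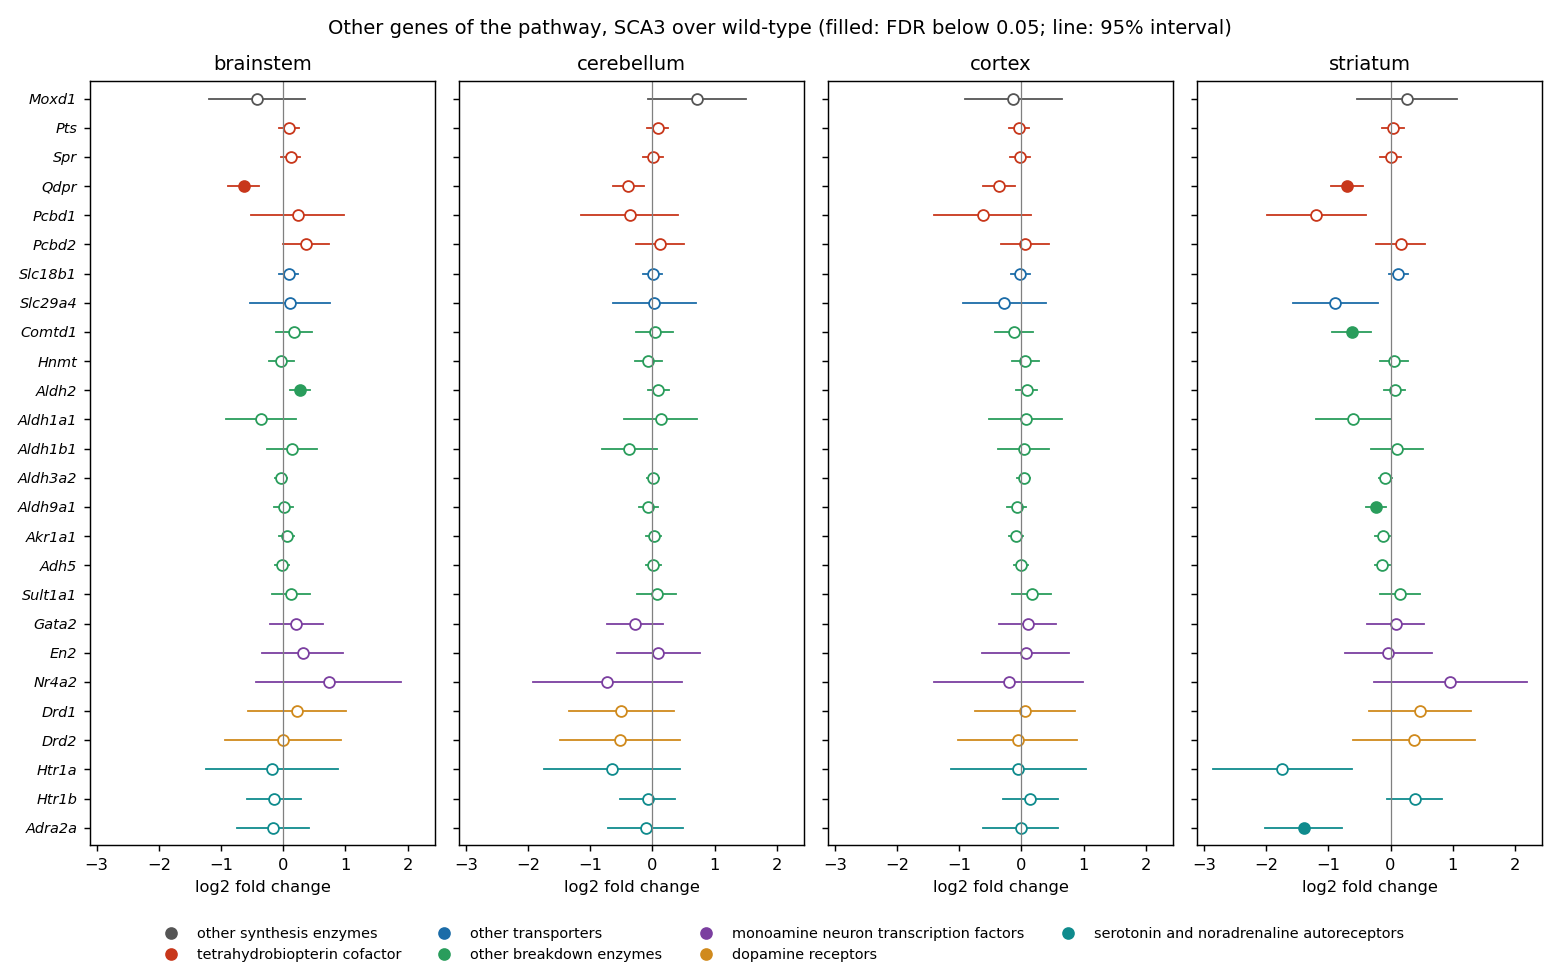
Log2 fold change of SCA3 over wild-type (x axis) with its 95% interval for the 26 other genes of the pathway (rows, coloured by role) in the 4 regions, filled where the FDR was under 0.05. Qdpr is filled in brainstem and striatum, Aldh2 in brainstem, and Comtd1, Aldh9a1 and Adra2a in striatum.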

How the data were processed

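Poly-A RNA of 4 brain regions was sequenced with libraries that do not keep strand. The deposited table holds raw counts per gene, which the authors made, per the methods and the submitters' processing notes, with bcl2fastq 1.8, FastQC 0.11.2, cutadapt 1.10, STAR 2.3.0e (uniquely mapped reads, build GRCm38) and HTSeq 0.6.1 (RefSeq genes, unstranded), and cut to expressed genes before deposit; they used edgeR 3.14.0. Unique mapping and the cut limit which genes have a row.

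Here all 53 libraries were fitted together in edgeR 4.0.16 (R 4.3.3), with TMM scaling and 1 mean per region and genotype. The likelihood ratio test was adjusted by Benjamini-Hochberg over 12372 genes (FDR under 0.05). CPM used TMM-scaled totals, log2 CPM a prior count of 2, RPKM the union exon length, and intervals are Wald intervals. The joint test asks whether any of the 4 genotype effects differs from 0. Correlations used 100000 permutations, or all of them for 8 or fewer libraries (Python 3.11.15, scipy 1.17.1). Alternatives were the quasi-likelihood test, DESeq2 1.42.0, limma-voom 3.58.1 with and without the mouse as block, other scaling, at least 10 counts in every library, RIN (as a covariate or at least 7), mouse number series and leaving out each mouse. The largest number series alone (4 wild-type and 3 SCA3 mice), the marker covariate and the split of the brainstem libraries at 60 CPM of Th were added after the data were seen. The fits were tested on simulated data.

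Libraries of 1 mouse carry its number in every region, so the pairing comes from the same animal; deviations from group means had a mean correlation of 0.0904 to 0.186 between regions. Each mouse is 1 replicate within a region. Depth was 31700000 to 76700000 counts, and no 2 libraries were copies. Members, gene lists and tests were chosen with earlier results of these data known. Named were all members, list genes past the threshold, list genes of high level and the genes most like a member; Htr1a, Pcbd1 and Slc29a4 were named where they came near the threshold, after their values were seen. Of the listed pathway genes, 2 are not reported here and were left out of the counts.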

Additional observations from a re-analysis of the deposited data

Results flagged for a closer look

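Among 80 sets of 1 gene in 1 group of 4 to 10 libraries, 5 had a single library far from the others by Dixon's criterion, which chance alone marks in about 1 of 20 sets. SCA3 mouse 9082853 stood out in cerebellum for Ddc (14.61 CPM, the other 5 at 4.35 to 6.89 CPM) and for Slc18a2 (13.21 CPM, the others at 3.90 to 5.97 CPM). SCA3 mouse 7267056 stood out in cortex for Maoa (50.38 CPM, the others at 37.0 to 41.7 CPM). Wild-type mouse 7267058 stood out in striatum for Maob (72.93 CPM, the other 7 at 30.1 to 41.7 CPM), with a RIN of 6.2 and a thalamus score of 6.96. Of the others, 7267055 had a RIN of 6 with 39.5 CPM, and 7267059 a thalamus score of 7.36 with 37.5 CPM. Wild-type mouse 9083375 stood out in brainstem for Slc18a2 (224.2 CPM, the other 7 at 39.3 to 123 CPM) and was also the highest library there for Th and Ddc.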

How the results depend on the processing

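Of 510 alternative values of the 20 genotype effects of members, 470 had the same direction and side of the threshold, 3 passed it (Maob in striatum) and 37 changed sign, with an FDR of 0.767 or more. The count of members that differed by genotype in striatum was 0 and ran from 0 to 1 when 1 mouse was left out, that between brainstem and cerebellum was 5 and ran from 3 to 5, and that between cortex and striatum was 1 and ran from 1 to 2, with 0 in libraries with a RIN of at least 7. Genotype effects that changed sign when 1 mouse was left out ran, on the log2 scale, from -0.84 to 0.47 for Th in brainstem, -0.14 to 0.084 for Th in cerebellum, -0.46 to 0.14 for Ddc in brainstem, -0.50 to 0.069 for Ddc in cerebellum, -0.30 to 0.15 for Ddc in cortex, -0.61 to 0.064 for Slc18a2 in cortex, -0.083 to 0.056 for Maoa in cortex, -0.065 to 0.022 for Maob in brainstem and -0.037 to 0.10 for Maob in cortex; the Slc18a2 difference between wild-type cerebellum and cortex ran from -0.64 to 0.19. In limma-voom the sign turned for Th in brainstem (0.0945) and Ddc in cortex (0.0932), and the calls of Th in brainstem over cerebellum and striatum, Aldh2, Aldh9a1 and Adra2a and the joint calls of Comtd1 (FDR 0.173) and Adra2a (FDR 0.373) were lost, as these joint calls also were in the quasi-likelihood test, with a RIN of at least 7 and in 9 and 8 of the 14 fits without 1 mouse. With the mouse as replicate block in limma-voom the same calls were lost (joint FDR 0.153 and 0.438) other than that of Th over striatum, so the pairing itself removed no call, and the sign turned for Th in brainstem (0.10), Th in cerebellum (0.039) and Ddc in cortex (0.12). With RIN as a covariate Th in cerebellum was 0.0127 and Maob in brainstem 0.0668, with a RIN of at least 7 Maob in brainstem was 0.0202, and with number series as a covariate Th in cerebellum was 0.021. In the largest number series alone Th was 0.34, Ddc 0.043 and Maob 0.0661 in brainstem, and with the thalamus score as a covariate Maoa in striatum was 0.0182. Without the 2 farthest libraries r turned to -0.35 for Th and Maoa and -0.0666 for Ddc and Maoa. The cause of these shifts was not tested. The lowest count of a member in any library was 35.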
